A study of Homo sapiens with 12 samples.

Results

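Blocking miR-455-3p in human cartilage tumour cells was examined at the level of every measured gene, by setting cells given a miR-455 inhibitor against cells given an inhibitor control. The libraries were chosen by their titles alone, which gave 6 of the 12 RNA-seq libraries in the study, 3 with the inhibitor and 3 with its control. All were made from SW1353, a permanent line grown from a human chondrosarcoma, after transfection at 50 nM and 48 hours of culture. The other 6 libraries held the same line with a miR-455-3p mimic or a mimic control, and they entered the same fit to give 1 estimate of the spread. The question put by the comparison was which transcripts move when the microRNA is held back.

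A microRNA is a short RNA that guides an Argonaute protein to messages carrying a match to its seed, most often in the 3′ UTR, and the bound message is then translated less or degraded. An inhibitor is a chemically modified antisense oligonucleotide that pairs with the mature microRNA and keeps it from its messages, so that targets are relieved of repression where the microRNA is active. miR-455 is transcribed with the collagen gene COL27A1 and is abundant in developing cartilage.

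The sequences below show what the inhibitor was aimed at, with the seed (bases 2 to 8) in capitals. Both mature strands come from RefSeq on GRCh38.p14. The 3p strand lies at chr9:114209487-114209507 and the 5p strand at chr9:114209449-114209470, both on the plus strand, inside COL27A1 (chr9:114155560-114312511, plus strand). The 3p sequence fell within an exon of 0 of the 8 annotated COL27A1 transcripts, so it is intronic.
hsa-miR-455-3p: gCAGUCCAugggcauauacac
hsa-miR-455-5p: uAUGUGCCuuuggacuacaucg

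The mature microRNA was not measured in these libraries, so the amount blocked is unknown. Its host COL27A1, a fibrillar collagen gene, stood at 248, 249 and 176 normalised counts in the control libraries and at 139.8, 144 and 189 in the inhibitor libraries. The ranges overlapped, and the log2 change of -0.51 ± 0.21 did not pass the test (limma, Benjamini-Hochberg adjusted p = 0.289).

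The values are estimated counts per Ensembl gene divided by a size factor for each library. They are not corrected for gene length, so levels are compared between libraries for 1 gene and never between genes. The normalised totals of the 6 libraries lay between 10974101 and 11901158, and estimated totals over all 12 libraries were 10.5 to 12.5 times 1e6 counts. On the log2 scale, Pearson correlations over the genes ran from 0.966 to 0.972 within a group and from 0.959 to 0.968 where an inhibitor library was set against a control library. Of the cartilage markers, SOX9, the chondrocyte transcription factor, lay between 994 and 1303 in the 6 libraries and COL11A1 between 309 and 482, whereas aggrecan (ACAN) lay between 10.6 and 16.8 and COL2A1, the main cartilage collagen, was at 0 in all 6. Among the 12 libraries, mimic replicate 3 stood apart from the other mimic libraries, and the main counts of called genes are given with and without it. Counts within gene lists, seed match classes and 3′ UTR lengths also depend on it but are given only with it.

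Of 16468 genes tested, 126 rose with the inhibitor (0.765%) and 129 fell (0.783%), 255 in all (1.55%), at an adjusted p under 0.05. The test was limma on log2(value + 0.5), two-sided, with Benjamini-Hochberg adjustment over all genes, and every adjusted p below comes from it. At an unadjusted p under 0.05 there were 2381 genes. The libraries of the 2 groups did not overlap for 4156 genes (25.2% of those tested), among them all 255 called. Non-overlap was also a condition for naming the leading genes, so where it is stated for a called gene it adds no further support. Changes were moderate: the median log2 change was 0.70 among raised and -0.60 among lowered genes, against 0.03 over all genes. Only 37 of the raised and 19 of the lowered genes changed by more than 2-fold. The raised genes included 119 protein-coding genes and the lowered 121.

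These counts depended on single libraries. Without mimic replicate 3, 331 genes rose and 322 fell, all 255 among them. The counts were 44 and 50 without inhibitor control replicate 1, 54 and 63 without replicate 2 and 75 and 61 without replicate 3. They were 39 and 49 without inhibitor replicate 1, 84 and 127 without replicate 2 and 48 and 61 without replicate 3. In all, 73 calls, 32 raised and 41 lowered, held in each of the 12 fits that left out 1 library. For a called gene that is not among these 73, the number of these 12 fits in which its call held is given where it is described.

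**Figure D1:**
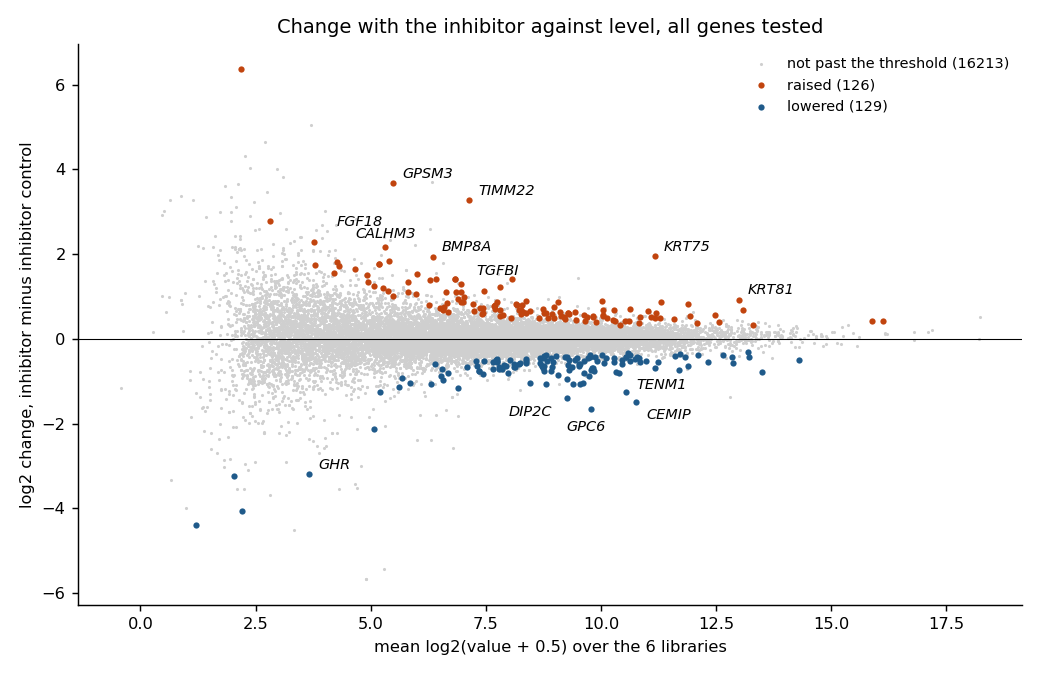
Each point is 1 of the 16468 genes tested, with the mean log2(value + 0.5) over the 6 libraries on the x axis and the log2 change, inhibitor minus inhibitor control, on the y axis. The 126 raised genes are orange and the 129 lowered genes blue; KRT75 (log2 1.94) stands out among abundant raised genes, and FGF18 (log2 2.53) lies among the grey genes that did not pass.

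Keratins were prominent among the rises. KRT75, a type II keratin of hair follicle and nail epithelium, stood at 1095, 1231 and 1207 in the control libraries and at 4658, 4487 and 4432 with the inhibitor. Every inhibitor library was far above every control library, and the 3 inhibitor libraries lay close together. The log2 change was 1.94 ± 0.13 (adjusted p = 2.20e-05). The mimic libraries (850, 849 and 1221) and mimic controls (960, 783 and 951) lay near the inhibitor controls.

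KRT81, a hair keratin, rose from 6345, 5696 and 5748 to 11655, 11319 and 10692 (log2 0.92 ± 0.096, adjusted p = 0.000621). Part of its signal may belong to its near-identical neighbour KRT86, since estimated counts divide shared reads. KRT86 itself stood at 57.0, 56.0 and 38.2 and then 135, 168 and 138, with no overlap and an adjusted p of 0.0728. KRT15, a keratin of basal epithelial cells, rose from 232, 195 and 216 to 380.5, 415 and 344 (log2 0.82 ± 0.11, adjusted p = 0.00409). KRT18, a keratin of simple epithelia, rose from 1913, 1736 and 2029 to 3017, 2701 and 2942 (log2 0.61 ± 0.091, adjusted p = 0.00650). In each of these the lowest inhibitor library was above the highest control library. Mimic control and mimic means were 4341 and 5788 for KRT81, 174 and 198 for KRT15 and 1287 and 1629 for KRT18, so these means were higher with the mimic too.

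Of the 11 tested genes on a list of keratins and epithelial markers, 8 rose, 0 fell and 3 did not pass. Its median log2 change was 0.92 against 0.03 over all genes, and all 11 members were above 0. The count was 5 when any 1 of the 3 inhibitor libraries, or inhibitor control replicate 1 or 2, was left out. Besides those named, KRT80 (log2 0.56, adjusted p = 0.0203), KRT8, the partner of KRT18 in simple epithelia (log2 0.50, adjusted p = 0.0396), C1orf116 and CLDN4 rose. The call held in 7 of the 12 fits without 1 library for KRT80 and in 2 for KRT8 and for CLDN4. Mimic control and mimic means were 797 and 1113 for KRT80, 1135 and 1417 for KRT8 and 24.7 and 17.1 for CLDN4. Of the 11 members 1, KRT75, passed for the inhibitor change minus the mimic change in the same fit. Reads of KRT8 and KRT18 may be shared with their numerous pseudogenes, so the levels of both are uncertain. The list was drawn up with earlier results of these libraries known, so its count is a description.

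Off the list, KRT71, an inner root sheath keratin, rose from 9.0, 15.4 and 8.15 to 31.1, 32.5 and 45.0 (log2 1.73, adjusted p = 0.0293), and PPL, which encodes periplakin of desmosomes and the cornified envelope, rose from 12.5, 24.1 and 23.5 to 84.8, 77.5 and 44.3 (log2 1.76, adjusted p = 0.0392). Neither pair of groups overlapped, but the call held in 7 and 5 of the 12 fits without 1 library.

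The summed level of 9 epithelial markers lay between 33.6 and 47.1 in the control libraries and between 62.9 and 124 in the inhibitor libraries, and 1 of the 2 that could be tested, CLDN4, passed. Without CLDN4 the sum lay between 21.3 and 33.0 in the controls and between 28.1 and 61.5 with the inhibitor, which overlapped. CLDN7, a claudin, stood at 13.0, 8.65 and 8.72 and then 11.4, 19.7 and 11.2. CLDN3, EPCAM and GRHL2 were at or near 0 in all 6 libraries, and CDH1, the epithelial cadherin, reached 35.8 in inhibitor replicate 1 but at most 6.33 in the other 5. The summed blood cell markers, nearly all CD68, lay between 2838 and 2950.0 in the controls and between 3042 and 3992 with the inhibitor. Endothelial sums overlapped (48.1 to 84.5 against 57.9 to 98.4). In bulk libraries more cells of a type and more RNA per cell cannot be told apart, and the part of these markers in the keratin values was not tested.

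**Figure D2:**
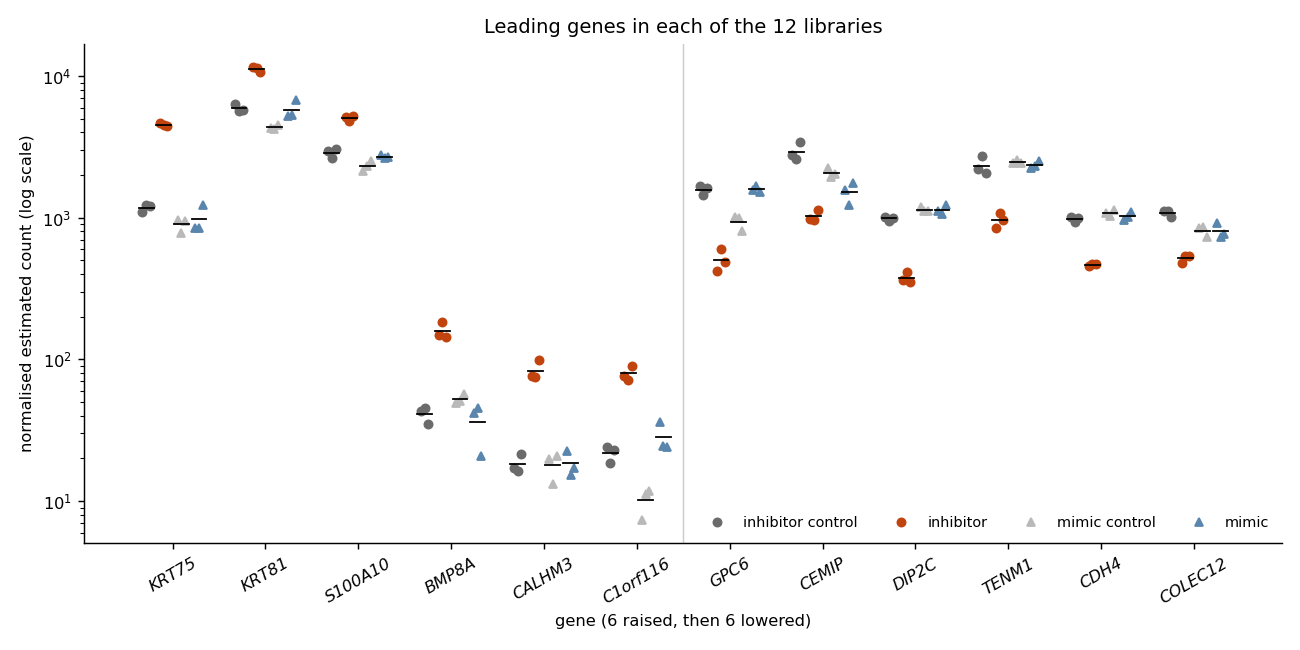
Normalised estimated counts on a log axis for 6 raised and 6 lowered genes in all 12 libraries, with 1 point per library and a bar at the group mean of 3. For each gene the 3 inhibitor libraries (orange) lie outside the range of the 3 inhibitor controls (dark grey), as for KRT75 at 4432 to 4658 against 1095 to 1231; mimic and mimic control libraries are triangles.

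Other leading rises came from low to moderate levels. CALHM3, an ion channel subunit known from taste cells, stood at 17.1, 16.3 and 21.4 in the controls and 76.1, 75.2 and 99.1 with the inhibitor (log2 2.16 ± 0.26, adjusted p = 0.00188). BMP8A, a bone morphogenetic protein ligand, stood at 43.0, 45.5 and 34.8 and then 149.6, 184 and 144 (log2 1.94 ± 0.26, adjusted p = 0.00405). TNFSF15, a cytokine of the tumour necrosis factor family, rose from 17.7, 16.2 and 24.3 to 65.0, 65.8 and 69.0 (log2 1.77 ± 0.24, adjusted p = 0.00409). None of the 3 overlapped between groups. In the mimic libraries BMP8A was 41.8, 45.4 and 20.7, all below the inhibitor libraries. BMP8A has a close paralog, BMP8B, and the split of reads between them is uncertain.

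S100A10, the annexin A2 partner that shapes the cell cortex, was an abundant transcript that rose from 2952, 2657 and 3036 to 5121, 4838 and 5207 (log2 0.81 ± 0.079, adjusted p = 0.000416). TGFBI, a secreted adhesion protein induced by TGF-beta, rose from 132, 118 and 105 to 274, 241 and 261 (log2 1.13 ± 0.12, adjusted p = 0.00106). It was the 1 gene called among 18 on the TGF-beta list, whose median log2 change was 0.09.

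Among called genes with a symbol and a mean of at least 20 in 1 group, the 2 largest rises had wide errors. GPSM3, a modulator of G protein signalling within the major histocompatibility complex, stood at 18.4, 6.24 and 14.9 and then 215, 133 and 141 (log2 3.68 ± 0.59, adjusted p = 0.00832, held in 11 of the 12 fits), and its copies on alternative haplotypes share its reads. For GPSM3 the mimic libraries (58.5, 86.2 and 97.9) were also above the mimic controls (4.05, 25.9 and 25.7). TIMM22, a mitochondrial import channel, stood at 60.6, 84.9 and 17.1 and then 544, 287 and 530.4 (log2 3.27 ± 0.71, adjusted p = 0.0407). For TIMM22 the mimic libraries also reached 434, and the call held in 5 of the 12 fits without 1 library. PSG9, a pregnancy-specific glycoprotein with near-identical family members, rose from 41.9, 36.8 and 34.6 to 81.5, 128 and 124 (log2 1.52 ± 0.24, adjusted p = 0.00789).

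Genes of the cell surface were among the largest falls. GPC6, a glypican that carries heparan sulphate at the membrane, stood at 1683, 1446 and 1610.2 in the control libraries and at 418, 605 and 487 with the inhibitor. Every inhibitor library was well below every control (log2 -1.66 ± 0.13, adjusted p = 6.14e-05). The mimic controls stood at 1007, 1001 and 808 and the mimic libraries at 1571, 1673 and 1525, so the mimic controls all lay below the inhibitor controls for this gene. On the list of cell surface proteoglycans 1 of 10 genes fell, GPC6 itself, 0 rose, and 9 of 10 were below 0 with a median of -0.28.

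CEMIP, which takes part in the breakdown of hyaluronan, stood at 2768, 2593 and 3426 and then 988, 969 and 1133 (log2 -1.50 ± 0.14, adjusted p = 0.000227). It was the 1 gene called among 10 of hyaluronan synthesis, binding and breakdown, a list with a median of 0.14. COLEC12, a scavenger receptor with a collagen-like stalk, stood at 1108, 1109.7 and 1019 and then 479.5, 539 and 538 (log2 -1.06 ± 0.10, adjusted p = 0.000438). Neither gene overlapped between groups, and the 3 inhibitor libraries lay close together in both.

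DIP2C, a gene of uncertain function, had the smallest adjusted p of the comparison. It stood at 1019.8, 949.7 and 1002 in the controls and at 365, 414 and 353 with the inhibitor (log2 -1.39 ± 0.086, adjusted p = 1.54e-05). TENM1, a teneurin that joins cells at synapses and other contacts, stood at 2210.2, 2709 and 2059.7 and then 853, 1073 and 972 (log2 -1.26 ± 0.11, adjusted p = 0.000159). CDH4, a classical cadherin of retina and brain, stood at 1007, 930.0 and 1001 and then 454.8, 471 and 470.1 (log2 -1.07 ± 0.080, adjusted p = 4.53e-05). In all 3 genes no mimic or mimic control library was as low as the inhibitor libraries, as the plot of leading genes shows.

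NRXN3 and CSMD2 also fell. NRXN3, a presynaptic neurexin, stood at 535, 460.4 and 524 and then 254, 281 and 202 (log2 -1.05 ± 0.12, adjusted p = 0.00106). CSMD2, a large transmembrane protein with complement-like domains, stood at 1126, 1189.7 and 1064 and then 595, 600.0 and 455.3 (log2 -1.04 ± 0.13, adjusted p = 0.00188). The teneurin TENM3 (log2 -0.72, adjusted p = 0.0195) and the secreted guidance cue SEMA3C (log2 -0.44, adjusted p = 0.0253) also fell, each held in 7 of the 12 fits without 1 library. For SEMA3C the mimic libraries (1161, 989 and 1039) were also below the mimic controls (1456, 1444 and 1407). On the list of teneurins, latrophilins and axon guidance genes 3 of 21 fell, TENM1, TENM3 and SEMA3C, and 0 rose, with a median of -0.18.

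GHR, the growth hormone receptor, fell furthest among called genes with a symbol and a mean of at least 20 in 1 group. Its values were 50.4, 30.1 and 35.1 in the controls and 2.30, 2.31 and 8.65 with the inhibitor (log2 -3.20 ± 0.50, adjusted p = 0.00768), and the call held in 11 of the 12 fits without 1 library. Mimic controls stood at 11.2, 15.5 and 7.41 and mimic libraries at 4.37, 3.39 and 4.47, so the inhibitor controls were the highest group. IGFBP3, the main carrier of insulin-like growth factors in blood, rose from 1100.3, 1063 and 1102 to 1486, 1429 and 1449.8 (log2 0.42, adjusted p = 0.0159, held in 7 of the 12 fits). For IGFBP3 the mimic libraries (1295, 1182 and 1152) were also above the mimic controls (927, 931 and 837). On the growth hormone and IGF list these 2 of 15 genes were called, and IGF1R stood at log2 0.08 (adjusted p = 0.898).

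Collagenases fell. MMP1, the interstitial collagenase, stood at 879, 859.9 and 823 and then 515, 383 and 441 (log2 -0.95 ± 0.15, adjusted p = 0.00826). MMP13, the collagenase of hypertrophic cartilage and osteoarthritis, stood at 669, 671 and 593 and then 333, 272 and 323 (log2 -1.06 ± 0.19, adjusted p = 0.0155), held in 7 of the 12 fits without 1 library. ADAMTS12 also fell (log2 -0.40, adjusted p = 0.0303), and the membrane-type protease MMP24 rose (log2 0.54, adjusted p = 0.00871), held in 3 and 11 of the 12 fits. With 1 raised and 3 lowered of 17, the median of the proteases and their inhibitors was -0.18.

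Among 26 mesenchymal and cartilage matrix genes 3 fell and 0 rose, with a median of -0.12. TNC, the matrix glycoprotein tenascin C, stood at 3644, 3575 and 3624 and then 2645, 2773 and 2709 (log2 -0.42 ± 0.064, adjusted p = 0.00721). THBS2, a thrombospondin of connective tissue, stood at 249.6, 255 and 269 and then 153, 157 and 164 (log2 -0.70 ± 0.11, adjusted p = 0.00789). BGN, the small proteoglycan biglycan, fell as well (log2 -0.53, adjusted p = 0.0220, held in 6 of the 12 fits). The main fibrillar and structural matrix genes did not pass: COL1A1 stood at log2 -0.00 (adjusted p = 0.994), COL1A2 at -0.09 (0.661), FN1 at 0.15 (0.631) and SPARC at 0.12 (0.502).

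Matrix receptors and basement membrane genes moved in both directions. ITGA10, the collagen-binding integrin of chondrocytes, stood at 1725, 1645 and 1652 and then 922, 957 and 1025 (log2 -0.79 ± 0.094, adjusted p = 0.00180). LAMA5, a laminin chain of epithelial basement membranes, rose (log2 0.82, adjusted p = 0.0205), held in 7 of the 12 fits without 1 library. Of 23 integrins and laminins 2 rose and 1 fell, and their median was -0.06.

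**Figure D3:**
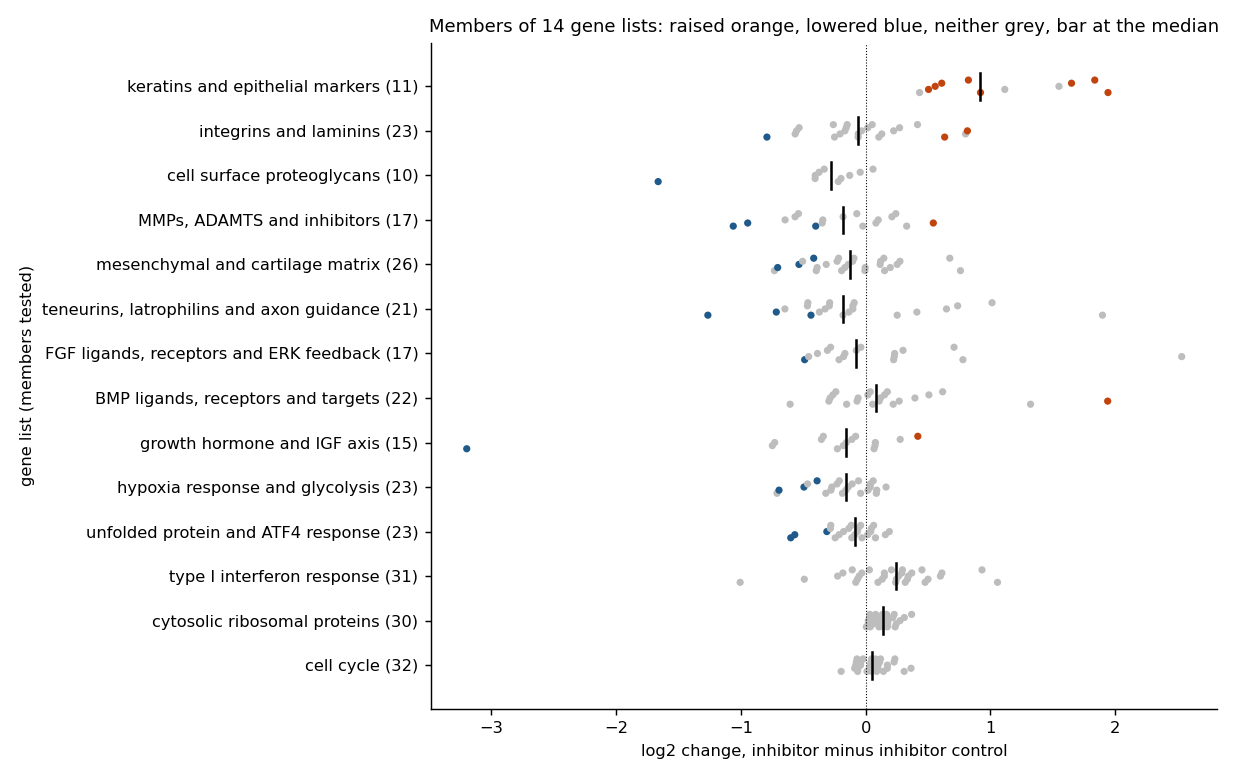
Log2 change, inhibitor minus inhibitor control, of each tested member of 14 gene lists, with raised genes in orange, lowered in blue, genes that did not pass in grey and a bar at the median of the list. Keratins and epithelial markers lie to the right of 0 with a median of 0.92, whereas cytosolic ribosomal proteins gather around a median of 0.14 with 0 called.

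Each signalling list given here held 1 called gene, where 1.55% of all genes tested were called. The lists were drawn up with earlier results known, so these counts are a description. In the FGF list the receptor FGFR2 was the 1 of 17 to pass, at 729, 747 and 758 and then 494, 554 and 546 (log2 -0.49 ± 0.090, adjusted p = 0.0179, held in 7 of the 12 fits). BMP8A was the 1 of 22 BMP genes to pass, and the median of that list was 0.08. Of 19 immediate early and KLF factors KLF4 rose (log2 0.88, adjusted p = 0.0301), of 17 NF-kB, cytokine and chemokine genes TNFAIP2 rose (log2 0.37, adjusted p = 0.0175), and of 20 p53 targets TP53I3 rose (log2 0.65, adjusted p = 0.0293). Their calls held in 7, 8 and 6 of the 12 fits. For TP53I3 the mimic libraries (212, 230 and 277) were also above the mimic controls (78.4, 73.2 and 94.9). Of 23 Wnt genes 1 fell and 0 rose, with a median of -0.21.

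In metabolism and stress, 3 of 23 hypoxia and glycolysis genes fell. HK2, the hexokinase that begins glycolysis, stood at 1100.0, 1135 and 1185 and then 676, 731 and 707 (log2 -0.69 ± 0.10, adjusted p = 0.00640). ADM, a vasodilating peptide hormone (log2 -0.39, adjusted p = 0.0460, held in 2 of the 12 fits), fell too, and so did CA12, a carbonic anhydrase of the membrane (log2 -0.49, adjusted p = 0.0142, held in 7). Of 23 unfolded protein and ATF4 response genes 3 fell, the endoplasmic reticulum chaperones CALR (log2 -0.31, adjusted p = 0.0460) and CANX (log2 -0.57, adjusted p = 0.0280) and the degradation adaptor SEL1L (log2 -0.60, adjusted p = 0.0214). Their calls held in 3, 7 and 8 of the 12 fits. HSPA5, the central chaperone of that response, stood at log2 -0.18 (adjusted p = 0.357).

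limma called 0 of 32 cell cycle genes (2 at an unadjusted p under 0.05, median 0.05) and 0 of 31 interferon response genes (8 unadjusted, median 0.24). It called 0 of 25 genes of cholesterol and fatty acid synthesis (1 unadjusted, median 0.08) and 0 of 13 encoded by mitochondria (0 unadjusted, median -0.01). Of 30 cytosolic ribosomal proteins it called 0 (11 unadjusted), although all 30 were above 0, with a median of 0.14. The 13 genes of microRNA processing and Argonaute proteins gave 0 calls (1 unadjusted) with a median of -0.10. DICER1, which cuts the precursor, stood at log2 0.01 ± 0.24 (adjusted p = 0.992), and DROSHA at 0.04 ± 0.16 (adjusted p = 0.941).

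FGF18, a fibroblast growth factor, was among the genes the study followed up. It stood at 5.45, 5.82 and 8.29 in the control libraries and at 34.9, 33.6 and 52.7 with the inhibitor. All 3 inhibitor libraries were above all 3 controls, with a ratio of means of 6.20. The log2 change of 2.53 ± 0.59 did not pass (adjusted p = 0.0585), and the two-sided exact permutation test gave p = 0.1, the smallest that 3 against 3 libraries allow. Over 20 other settings the adjusted p lay between 0.00461 (without mimic replicate 1) and 0.215 (without inhibitor replicate 3), and it was under 0.05 in 7. Its levels were low in all groups, with mimic controls between 7.53 and 14.2 and mimic libraries between 1.03 and 8.78. BMP4 (log2 0.40 ± 0.15, adjusted p = 0.263) and the BMP receptor BMPR1A (log2 -0.24 ± 0.15, adjusted p = 0.508), which the study also followed up, did not pass. The paper also used quantitative RT-PCR in a human osteosarcoma line. There it reports that the inhibitor raised FGF18 and BMP4, that the mimic lowered both, and that BMPR1A was unaffected. Of 13 skeletal genes on the study's list 8 could be tested, and 0 of them passed (2 at an unadjusted p under 0.05, median -0.17). Of 10 genes listed as reported miR-455-3p targets 0 passed in limma (0 at an unadjusted p under 0.05), and their median was -0.02.

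The longest annotated 3′ UTR of each gene (GENCODE 29, GRCh38) was searched on the transcribed strand for 4 matches to the seed, and each gene was put in its best class. An 8mer is TGGACTGA and a 7mer-m8 is TGGACTG. A 7mer-A1 is GGACTGA, and the bare GGACTG is a 6mer. Among 13940 genes with a 3′ UTR, 13.3% held an 8mer or 7mer-m8. Such a match was found in 11 of the 117 raised genes with a 3′ UTR (9.40%) and in 35 of the 120 lowered genes (29.2%). These shares are not adjusted for 3′ UTR length, and counts by length are given below.

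The sites shown here are a selection, each with the bases before it and the matched letters in capitals. They come from some of the 11 raised and 2 of the 35 lowered genes with an 8mer or 7mer-m8, and from FGF18.
CLDN4: gctttgttcttcccTGGACTGA
GOLGA7B: gtgggggaacaggtTGGACTGA
C1orf116: gctgctgagaatttcTGGACTG
CDA: aagtccagcctagtcTGGACTG
PLK2: tcccctgtggcctgcTGGACTG
DIP2C: ctcaaaagagttggTGGACTGA
GHR: tacttcctctctgagTGGACTG
FGF18: aaagactcacgcaaagGGACTG

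CLDN4, a tight junction protein, carried an 8mer at chr7:73831875-73831882 (plus strand) near the start of its 3′ UTR. It rose from 15.3, 14.1 and 12.2 to 62.6, 40.2 and 34.8 (log2 1.65 ± 0.37, adjusted p = 0.0447). The other raised gene with an 8mer was GOLGA7B, related to a palmitoylation cofactor, at chr10:97867965-97867972 (plus strand), which rose from 139, 179 and 156 to 273, 244 and 286 (log2 0.77 ± 0.13, adjusted p = 0.0120). The call held in 2 of the 12 fits without 1 library for CLDN4 and in 9 for GOLGA7B.

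Of raised genes with a 7mer-m8, 3 held the call whichever library was left out. C1orf116, known as an androgen-regulated gene, held its site at chr1:207020364-207020370 (minus strand) and rose from 24.1, 18.7 and 23.1 to 76.5, 71.9 and 90.3 (log2 1.84 ± 0.26, adjusted p = 0.00485). CDA, cytidine deaminase, held its site at chr1:20618819-20618825 (plus strand) and rose from 220.1, 235 and 271 to 424, 457 and 469.7 (log2 0.90 ± 0.13, adjusted p = 0.00485). PLK2, a polo-like kinase induced by stress, held its site at chr5:58454442-58454448 (minus strand) and rose from 902, 1019 and 1027 to 1625, 1506 and 1557 (log2 0.67 ± 0.096, adjusted p = 0.00534). No groups overlapped. In the mimic libraries PLK2 was not lower than in the mimic controls (1314, 1054 and 1136 against 827, 835 and 942), and neither was C1orf116 (35.9, 24.4 and 24.3 against 7.29, 11.2 and 11.8). Mimic and mimic control means were 281 and 234 for CDA and 160 and 147 for GOLGA7B, so these were not lower either. For CLDN4 the mimic mean was the lower one (17.1 against 24.7).

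Matches were also found in genes that moved the other way. DIP2C held an 8mer at chr10:274987-274994 (minus strand) and GHR a 7mer-m8 at chr5:42720823-42720829 (plus strand), and both fell as given above. COLEC12, which also fell, held an 8mer at chr18:319816-319823 (minus strand) and a 7mer-m8. FGF18 held only a 6mer, at chr5:171457024-171457029 (plus strand). In the paper's reporter assay the mimic repressed the FGF18 3′ UTR, and mutating the seed site rescued it. The paper takes this to imply a direct target. KRT75, CALHM3, BMP8A, S100A10 and TGFBI, among the leading rises, held none of the 4 classes.

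Across all genes with a 3′ UTR, those with a site did not stand higher. The 551 genes with an 8mer had a median log2 change of -0.02, with 2 raised and 11 lowered. The 1301 with a 7mer-m8 had a median of -0.01, with 9 raised and 24 lowered, and the 9217 with no match a median of 0.05, with 81 raised and 55 lowered. The 5p strand, whose seed match is GGCACAT, gave medians of 0.02 for 331 genes with an 8mer, -0.00 for 1189 with a 7mer-m8 and 0.04 for 9614 with none.

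**Figure D4:**
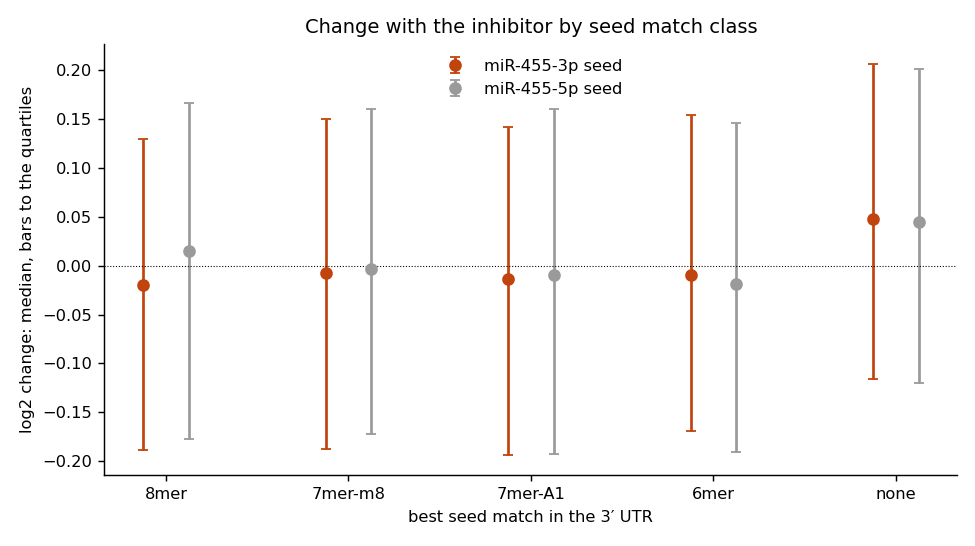
Median log2 change, inhibitor minus inhibitor control, by the best seed match in the 3′ UTR, with bars to the quartiles of the genes in each class, for miR-455-3p (orange) and miR-455-5p (grey). The medians with a match lie between -0.02 and 0.02 and those without at 0.05 and 0.04, all well inside the quartile bars.

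The change also differed with 3′ UTR length. For the 3p seed, genes with 3′ UTRs of 50 to 500 bases had medians of 0.09 with an 8mer or 7mer-m8 (100 genes) and 0.10 with no match (2760 genes). Of the 100, 1 rose and 1 fell, and of the 2760, 38 rose and 3 fell. With 3′ UTRs over 2000 bases the medians were -0.05 (1192 genes) and -0.02 (2236 genes). Of the 1192 with a match 5 rose and 31 fell, and of the 2236 with none 6 rose and 32 fell. These strata were added after the data had been seen.

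The genomic span of a gene, from the first to the last annotated base, was associated with the direction of change. The median span was 157 kb for the 122 lowered genes with an annotated span, 18.5 kb for the 122 raised and 31.2 kb for all 15299 tested. Of the lowered genes 49 (40.2%) spanned more than 200 kb, against 6 of the raised (4.92%) and 7.54% of all tested. Of the 15 largest falls 9 spanned more than 200 kb, and of the 15 largest rises 0 did.

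By class, 20 of 5774 genes under 20 kb fell (0.346%) and 63 rose, with a median log2 change of 0.06. Between 100 and 200 kb, 25 of 1771 fell (1.41%) and 9 rose, with a median of -0.02. Over 200 kb, 49 of 1153 fell (4.25%) and 6 rose, the median was -0.12 and 64.2% of genes were below 0. As a guide to the counts behind these shares, the median normalised count over the 6 libraries, not corrected for length, was 120 in genes over 200 kb and 177 in genes under 20 kb. The number of lowered genes over 200 kb was 90 without mimic replicate 3, 21 without inhibitor control replicate 1, 31 without replicate 2, 26 without replicate 3, 24 without inhibitor replicate 1 and 29 without inhibitor replicate 3. The number of raised genes over 200 kb lay between 0 and 13 in these fits.

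Among the named lowered genes, GPC6 spans 1181 kb, NRXN3 1698 kb, CDH4 688 kb, CSMD2 652 kb, TENM1 588 kb and DIP2C 415 kb. TSHZ2, a zinc finger transcription factor of 523 kb, fell from 1744, 1808 and 1744 to 1071, 1049.9 and 906 (log2 -0.81 ± 0.083, adjusted p = 0.000594). SH3RF3, a ubiquitin ligase scaffold of 375 kb, fell from 184, 178 and 172 to 77.2, 83.4 and 75.6 (log2 -1.17 ± 0.14, adjusted p = 0.00219). Several lowered genes were compact, among them MMP1 (8.24 kb), MMP13 (12.7 kb) and ITGA10 (19.0 kb).

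The same contrast of long with short genes was taken in each library, as the median deviation from the mean over libraries of genes over 200 kb minus that of genes under 20 kb, on the log2 scale. It was -0.12, -0.14 and -0.05 in the inhibitor controls and -0.35, -0.24 and -0.27 with the inhibitor. All 3 inhibitor libraries were lower than all 3 controls, with a difference of -0.18 and an exact permutation p of 0.1, the smallest possible here. Span was chosen with earlier results of these libraries known, so this p adds no independent support. The contrast was 0.19, 0.19 and 0.26 in the mimic controls and 0.31, 0.22 and -0.03 in the mimic libraries. The inhibitor controls thus lay below the mimic controls, and mimic replicate 3 lay away from its 2 partners. The measure therefore also differed between groups that had no inhibitor, and what set it was not tested.

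**Figure D5:**
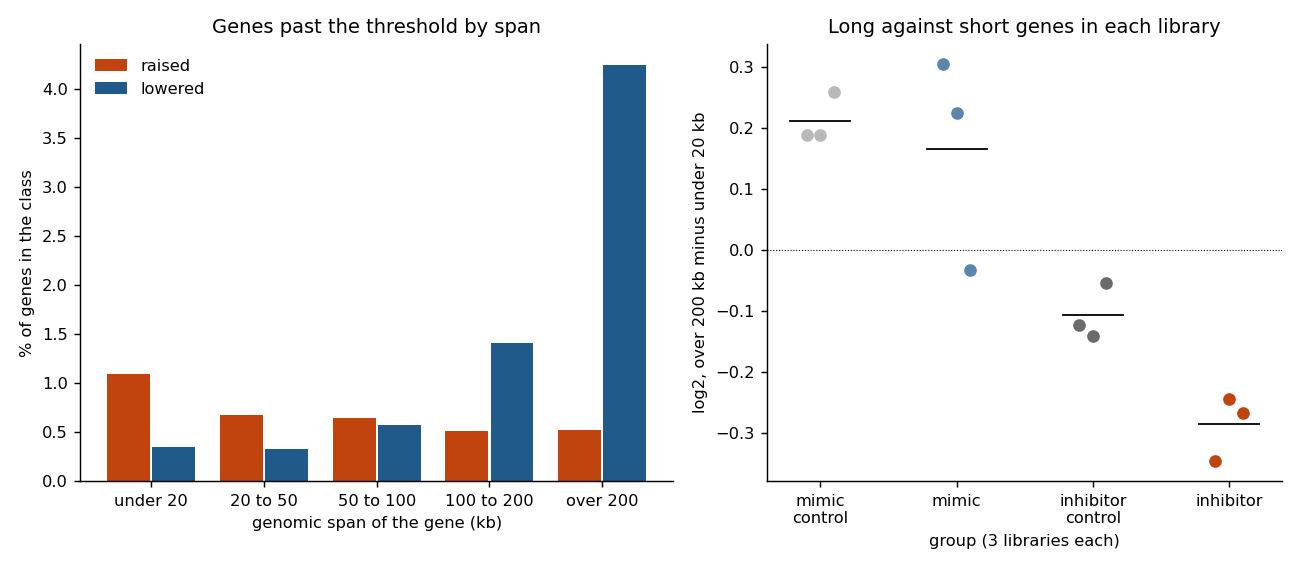
On the left, the percentage of tested genes in each class of genomic span that rose (orange) or fell (blue), from 0.346% lowered under 20 kb to 4.25% over 200 kb. On the right, the median log2 deviation of genes over 200 kb minus that of genes under 20 kb in each of the 12 libraries, with a bar at the mean of 3; the inhibitor libraries are lowest, at -0.35 to -0.24, and the controls of the mimic are above 0.

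The inhibitor response was set against the mimic response in the same fit, as the inhibitor change minus the mimic change, a contrast in which the 2 differences share no library. It was higher for 37 genes (0.225%) and lower for 103 (0.625%), 140 in all (0.850%), or 224 and 291 without mimic replicate 3. With any other library left out, 5 to 48 genes were higher and 32 to 95 lower. Both were lowest (5 and 32) when the first mimic control or the first inhibitor library was dropped. KRT75 was 1.84 higher on the log2 scale (adjusted p = 0.000644), BMP8A 2.55 higher (adjusted p = 0.00873) and GPC6 2.43 lower (difference -2.43, adjusted p = 8.43e-05). For C1orf116 the difference was 0.40 (adjusted p = 0.726) and for GHR -1.87 (adjusted p = 0.277), which did not pass. FGF18 stood at 3.63 (adjusted p = 0.0688).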

How the data were processed

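RNA was sequenced from 12 libraries of SW1353 cells, 3 in each of 4 groups. The authors used FastQC, Trim Galore, kallisto and sleuth on hg38, in versions and with an annotation release not given in the sources used here. What they deposited is a signal for each gene, namely estimated counts divided by a library size factor. In genes with 1 transcript only 71.7% to 74.7% of values came within 0.02 of whole multiples of a common step, so no count model was used.

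Of 40490 identifiers, 35521 had a symbol and 35493 were in GENCODE release 29 (GRCh38). Testing was on log2(value + 0.5) for genes reaching 5 in at least 47% of libraries. Group means were fitted over all 12 libraries with limma 3.58.1 (R 4.3.3; lmFit, eBayes with trend), two-sided, adjusted by Benjamini-Hochberg at 0.05, after the script had been tested on simulated data. The rest was done in Python 3.11.15 (matplotlib 3.10.9, scipy 1.17.1, numpy 2.4.6, pandas 2.3.3). No label ties a library to a separate culture, so p-values measure the spread between these libraries, which may be technical. Of the called identifiers 10 carry values identical to those of another, which left 250 distinct patterns among the 255.

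Alternatives changed the pseudocount, filter, scaling, library weights, replicate block and the libraries used. Named genes were those past the threshold with groups apart and a mean of at least 20 in 1 group (the 15 largest rises, the 15 largest falls, the 10 smallest p-values), the study's skeletal genes, up to 4 members of each of 28 lists, called list members, and raised genes with an 8mer or 7mer-m8. A subset is printed, without the genes of human chromosome 8 and a few others, which are not reported here. The lists, rules and this comparison were chosen with earlier results of these data known.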

Additional observations from a re-analysis of the deposited data

Results flagged for a closer look

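The inhibitor change minus the mimic change, tested as a contrast within the limma fit with Benjamini-Hochberg adjustment, was higher for 37 genes and lower for 103. Of 59 named genes checked, 23 passed, 8 higher and 15 lower, against 0.85% of all 16468 genes tested. Named genes were chosen in part by their inhibitor change, which this contrast contains. Their count is therefore a description and adds no independent support. Mimic replicate 3 stood apart from its partners, and the part of that library in these values was not tested gene by gene.

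Among genes that rose with the inhibitor, the difference on the log2 scale was 3.09 for the desmosome protein PPL, 2.55 for the ligand BMP8A, 2.50 for the keratin KRT71, 2.11 for the channel subunit CALHM3, 1.84 for the keratin KRT75, 1.77 for the cytokine TNFSF15, 1.06 for the adhesion protein TGFBI and 0.60 for S100A10. The mimic change itself was -1.33 for PPL, -0.77 for KRT71 and -0.61 for BMP8A. In the others it lay between -0.002 (TNFSF15) and 0.22 (S100A10).

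Among genes that fell, the largest difference belonged to the glypican GPC6 (-2.43), followed by OVCH2 (-2.36). It was -1.39 for DIP2C, -1.21 for the thrombospondin THBS2, -1.19 for the teneurin TENM1, -1.17 for the neurexin NRXN3, -1.05 for the scavenger receptor COLEC12, -1.03 for CEMIP and -0.996 for the cadherin CDH4. It was -0.92 for CSMD2, -0.80 for the hexokinase HK2, -0.65 for TSHZ2, -0.64 for the receptor FGFR2, -0.56 for the protease ADAMTS12 and -0.45 for tenascin C (TNC). The mimic change itself was 0.77 for GPC6, 0.50 for THBS2 and -0.47 for CEMIP. In the others it lay between -0.16 (TSHZ2) and 0.23 (OVCH2).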

How the results depend on the processing

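Of the 255 calls, 254 and 252 remained with pseudocounts of 1 and 5, 185 with no filter, 246 with a filter at 20, 248 and 249 after median-of-ratios (121 raised, 169 lowered) and quantile scaling (126 raised, 170 lowered), and 73 (32 raised, 41 lowered) in all 21 alternatives. With array weights 651 genes rose and 609 fell, and with the 6 libraries alone 199 rose. The cause of these shifts was not tested. For the inhibitor change minus the mimic change, 20 genes were higher and 56 lower with no filter, and 274 and 350 with array weights. With 1 library left out, the comparison called 39 to 331 raised and 49 to 322 lowered genes, and the difference of responses 5 to 224 higher and 32 to 291 lower. The log2 change of FGF18 became 2.45 (pseudocount 1), 1.96 (pseudocount 5), 2.51 (quantile scaling), 2.54 (array weights) and 2.53 (6 libraries alone), each with an adjusted p under 0.05, and lay between 2.33 and 2.71 with 1 library left out. It was not tested with a filter at 20.

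Equal replicate numbers did not pair the libraries, since deviations from the group means correlated at -0.02, 0.02 and 0.04 between same-numbered libraries and not every library correlated best with its own number. With the replicate block 95 genes rose and 91 fell, 174 of the calls among them, and the difference of responses was higher for 11 and lower for 63.

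Some uncalled values changed sign: MT-CO3 was -0.066 after quantile scaling, PANX3 0.11 with array weights and -0.66 to 0.10 with 1 library left out, and VCAN -0.41 to 0.30 with 1 library left out. With 3 libraries a group, low genes such as FGF18 limit what could be detected.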

Other observations

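Genes outside the lists were also among the calls that held whichever library was left out. They were chosen after their values were seen and are given as values. PADI1 and PADI3, enzymes of keratinised epithelium that convert arginine to citrulline, rose. PADI1 stood at 90.1, 70.8 and 51.0 in the control libraries and at 169, 196 and 187 with the inhibitor (log2 1.41 ± 0.20, limma with Benjamini-Hochberg adjusted p = 0.00485). PADI3 stood at 487, 525 and 488 and then 784, 811 and 699 (log2 0.61 ± 0.092, adjusted p = 0.00680). SFN, the 14-3-3 protein of stratified epithelium, stood at 157, 114 and 173 and then 347, 345 and 331 (log2 1.22 ± 0.16, adjusted p = 0.00405). The inhibitor libraries were above the controls in all 3 genes.

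Some raised genes are best known from muscle. DES, the intermediate filament protein desmin, stood at 172, 146 and 156 and then 293, 249 and 322 (log2 0.86 ± 0.13, adjusted p = 0.00738). MYL1, a skeletal muscle myosin light chain, and MYPN, a sarcomere protein, rose as well (log2 0.64 and 0.68, adjusted p = 0.00841 and 0.00789). Among abundant lowered genes, LOXL3, a lysyl oxidase that crosslinks collagen, stood at 15886, 15331 and 14451 and then 9099, 9534 and 7775 (log2 -0.79 ± 0.12, adjusted p = 0.00534). CHI3L1, a secreted glycoprotein of cartilage and synovium, stood at 4834, 5375 and 4166 and then 3087, 3138 and 2949 (log2 -0.64 ± 0.10, adjusted p = 0.00760). WLS, which carries Wnt ligands to the surface, and the Wnt receptor FZD5 fell (log2 -0.55 and -0.77, adjusted p = 0.00871 and 0.00534).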
